A study of Homo sapiens with 2 samples.

Results

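MicroRNA genes give rise to hairpin transcripts from which short mature RNAs are cut, and these pair through a seed near their 5′ end with messenger RNAs and repress them. Many microRNA hairpins lie inside a longer host transcript, protein-coding or long noncoding (lncRNA), and are made from that host's start site, while others have a start of their own. Open chromatin beside a hairpin can mark such a start or a distal regulatory element, and DNase I, which cuts accessible DNA, maps it.

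The regions described here were DNase I hotspots, stretches in which DNase I cuts were enriched, that lay within 2 kb of a microRNA gene and more than 1 kb from both ends of every protein-coding gene on chromosomes 1 to 22. MicroRNA genes were those of RefSeq with the biotype miRNA and a symbol of MIR followed by a number or of MIRLET. This rule used position alone. It took 196 of 51556 hotspots in Saos-2 and 221 of 63388 in U2OS, or 417 of 114944 in all. Both are established human osteosarcoma lines, kept in culture for decades, and each was profiled untreated as far as the labels say. Saos-2 lacks p53 and U2OS carries it in wild-type form, as background. Each line was represented by 1 DNase-seq library, so no difference between the lines had a replicate check and no test between them was made. A further 163 hotspots in Saos-2 and 186 in U2OS lay within 2 kb of a microRNA gene but at the end of a protein-coding gene, and were left out by the rule.

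The labelled cell type was looked at through hotspots within 1 kb of either end of marker genes. Of 10 osteoblast-lineage markers, 4 had such a hotspot in each line. RUNX2, the bone-lineage transcription factor, SPARC and BGLAP had one in both, ALPL in Saos-2 alone and COL1A1 in U2OS alone. Of 5 epithelial markers, 0 had one in Saos-2 and 3 in U2OS, namely KRT8, KRT18 and CLDN4. Blood markers had one at 3 of 5 genes in each line (CD3E, SPI1 and GATA1), liver markers at 1 of 2, neural markers at 1 of 3, and muscle and endothelial markers at 0 of 3 and 0 of 2. The share of all protein-coding genes with such a hotspot is not given here, so these counts cannot be read as high or low. A hotspot at a gene end does not report the expression of that gene.

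Of the 270 microRNA genes with a hotspot, 243 had mature sequences in the RefSeq table (GRCh38.p14), 338 in all, with 320 distinct seeds. Of these seeds, 6 were shared by more than 1 locus, a count given without that over all microRNA genes. Members of 4 are shown next, as examples of like mature RNAs whose genes lay beside hotspots of unlike lines. Another such seed, UGGCCAG of MIR4435-1 and MIR4435-2, is not shown. Each is printed 5′ to 3′ with the seed, bases 2 to 8, in capitals.
hsa-let-7i-5p: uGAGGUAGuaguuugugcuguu
hsa-let-7a-5p: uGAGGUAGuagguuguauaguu
hsa-let-7b-5p: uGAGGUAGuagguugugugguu
hsa-let-7e-5p: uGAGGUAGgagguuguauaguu
hsa-miR-125b-5p: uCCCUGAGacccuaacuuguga
hsa-miR-378a-3p: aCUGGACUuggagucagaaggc
hsa-miR-378f: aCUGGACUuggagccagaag
hsa-miR-422a: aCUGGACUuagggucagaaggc
hsa-miR-548j-3p: cAAAAACUgcauuacuuuugc
hsa-miR-548aj-3p: uAAAAACUgcaauuacuuuua
The let-7 seed GAGGUAG belonged to 4 genes at 3 loci: MIRLET7I had hotspots in both lines, MIRLET7A3 and MIRLET7B in Saos-2 alone, and MIRLET7E in U2OS alone. The 2 genes that encode the same miR-125b-5p fell apart by line, with a hotspot beside MIR125B1 in Saos-2 and beside MIR125B2 in U2OS. With the seed CUGGACU, MIR378A and MIR422A had hotspots in both lines and MIR378F in Saos-2 alone. The seed AAAAACU belonged to MIR548AJ1, MIR548J and MIR548X2, the last not printed. Each of these had hotspots in 1 line alone, and both lines occurred among them. The nearest gene of 17 of 196 hotspots in Saos-2 and 16 of 221 in U2OS shared a mature sequence with another gene. The share over all microRNA genes is not given here, so these counts cannot be read as high or low. Genes of the same locus count here, such as MIR3158-1 and MIR3158-2 on opposite strands.

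Hotspots were denser near microRNA genes than elsewhere away from protein-coding gene ends. Counted by midpoint, Saos-2 had 32.6 hotspots per Mb near microRNA genes (exact Poisson 95% interval 28.2 to 37.6) and 14.3 elsewhere, a ratio of 2.28. U2OS had 36.7 per Mb (31.9 to 41.9) and 18.1 elsewhere, a ratio of 2.02. The territory near microRNA genes was 5.89 Mb and the remainder 2798.65 Mb, which includes unassembled gaps. The intervals cover counting error only and treat hotspots as independent, which neighbours are not.

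The higher density held within each kind of annotation. In protein-coding gene bodies, Saos-2 had 31.97 per Mb near microRNA genes and 17.1 elsewhere, and U2OS 33.8 and 19.7. In lncRNA bodies outside protein-coding genes, the values were 31.1 and 15.3 in Saos-2 and 37.9 and 20.6 in U2OS. Outside both, they were 35.4 and 11.6 in Saos-2 and 44.8 and 16.0 in U2OS. The ratio was thus largest outside annotated gene bodies in both lines, at 3.05 and 2.80, against 1.87 and 1.71 in protein-coding bodies. Unassembled gaps counted outside gene bodies lower the density elsewhere there and raise that ratio, by an amount that was not measured.

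**Figure D1:**
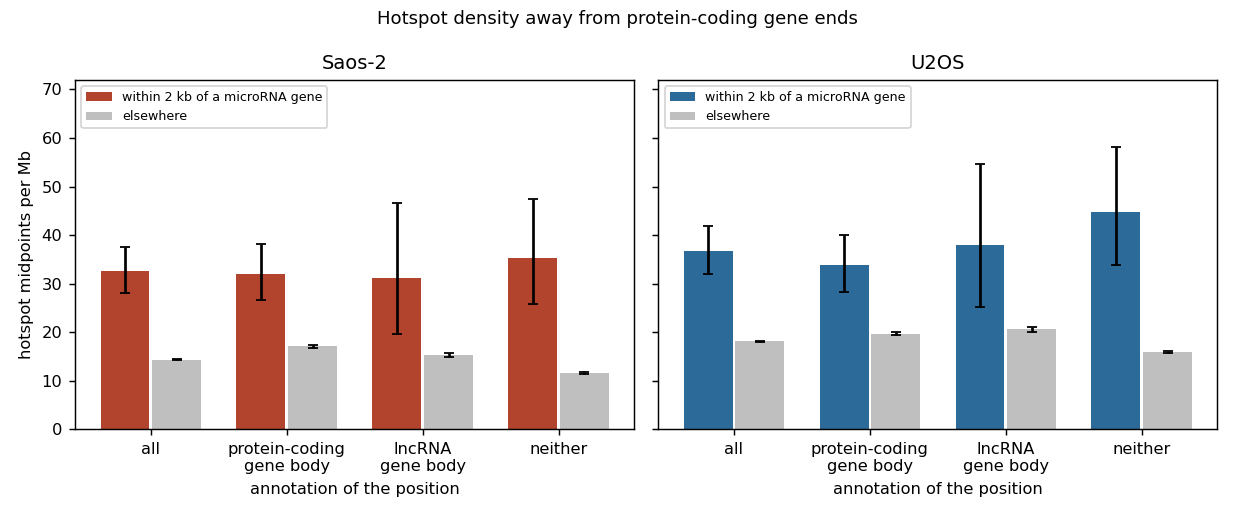
Hotspot midpoints per Mb (y axis, linear from 0) near microRNA genes (coloured) and elsewhere (grey), for all positions and by annotation, with exact Poisson 95% intervals as bars; 1 library per line. In each annotation class the coloured bar stands above the grey one, from 31.1 to 35.4 per Mb in Saos-2 and from 33.8 to 44.8 in U2OS.

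By location, 126 of the 196 Saos-2 hotspots (64.3%) lay in a protein-coding gene body, 28 (14.3%) in a lncRNA body only and 42 (21.4%) in neither. Among the other hotspots away from gene ends the shares were 49.5%, 13.95% and 36.6%. In U2OS the counts were 134 (60.6%), 33 (14.9%) and 54 (24.4%), against 45.2%, 14.9% and 39.8% of the others. Members thus lay more often in protein-coding bodies than the remainder did, where 3.88 of the 5.89 Mb near microRNA genes also lie, and about as often in lncRNA bodies.

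The members were about as wide and as significant as other hotspots. The significance is the authors' value per hotspot, read here as −log10 of the false discovery rate and used to describe and rank hotspots within a list. Its median was 4.02 in Saos-2 members and 3.84 in the others, and 4.35 and 4.36 in U2OS. Median widths were 242.5 and 226 bp in Saos-2 and 237 and 239 bp in U2OS. The members ranged from 51 to 1656 bp and from 1.31 to 100 in Saos-2, and from 51 to 1064 bp and from 1.37 to 64.0 in U2OS, where 100 is the highest value the lists hold.

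At the 2 kb limit of the rule, the last Saos-2 hotspot inside lay 1962 bp from MIR6074 (significance 3.47) and the first outside 2006 bp from MIR4289 (2.51). In U2OS these were 1998 bp from MIR4282 (4.44) and 2004 bp from MIR4736 (5.68). At the 1 kb limit around gene ends, a Saos-2 hotspot near MIR6743 was kept at 1006 bp and one near MIR6791 was left out at 997 bp. In U2OS, one near MIR4784 was kept at 1073 bp and one near MIR6791 left out at 985 bp.

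Sharing between the lines was counted as an overlap of at least 1 bp. Of the Saos-2 members, 114 of 196 (58.2%, Wilson 95% interval 51.2 to 64.8) were overlapped by a U2OS hotspot, against 52.8% (52.3 to 53.3) of the 39802 other Saos-2 hotspots away from gene ends. Of the U2OS members, 116 of 221 (52.5%, 45.9 to 59.0) were overlapped by a Saos-2 hotspot, against 41.5% (41.1 to 42.0) of the 50374 others. The member interval lay above the share of the others in U2OS, while in Saos-2 it contained it. The complement, 82 Saos-2 members (41.8%) and 105 U2OS members (47.5%) with no overlap, stood beside 47.2% and 58.4% of all hotspots away from gene ends.

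Members were shared about as often as hotspots at lncRNA gene ends, which were overlapped in 63.2% (61.2 to 65.1) of cases in Saos-2 and 46.9% (45.1 to 48.7) in U2OS. They were shared less often than hotspots at protein-coding gene ends, of which 80.1% were overlapped in Saos-2 and 70.3% in U2OS. The hotspots that lay near a microRNA gene but at a protein-coding gene end were overlapped in 86.5% (141 of 163) and 74.2% (138 of 186) of cases.

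The share of members overlapped was higher at higher significance in U2OS and, up to the last step, in Saos-2. With each list split at its significance quartiles, from the lowest class to the highest, U2OS members were overlapped in 35.5%, 46.0%, 53.8% and 75.4% of cases, and the others in 23.4%, 31.5%, 44.4% and 66.9%. In Saos-2 the members gave 40.0%, 59.2%, 71.4% and 60.4%, and the others 36.5%, 45.0%, 56.8% and 72.9%. The highest Saos-2 class was the 1 class in which members were shared less often than others. Without the loci MIR12136 and MIR4485, which are described further on, it stood at 63.8% (49.5 to 76.0).

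Sharing was most frequent at the hairpins and least frequent in the farthest distance bin in both lines. Members that covered a hairpin by at least 1 bp were overlapped in 70.8% of cases in Saos-2 (17 of 24, interval 50.8 to 85.1) and 73.9% in U2OS (17 of 23, 53.5 to 87.5). Those 1 to 500 bp away were overlapped in 60.8% and 58.8%, those 501 to 1000 bp away in 67.4% and 54.2%, and those 1001 to 1500 bp away in 54.1% and 46.9%. Members 1501 to 2000 bp away were overlapped in 41.5% (27.8 to 56.6) and 35.9% (22.7 to 51.6), below the other hotspots' shares of 52.8% and 41.5%, which lay inside those intervals. The intervals of neighbouring distance bins overlapped in both lines, and those of the hairpin and the farthest bin overlapped in Saos-2 and not in U2OS.

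**Figure D2:**
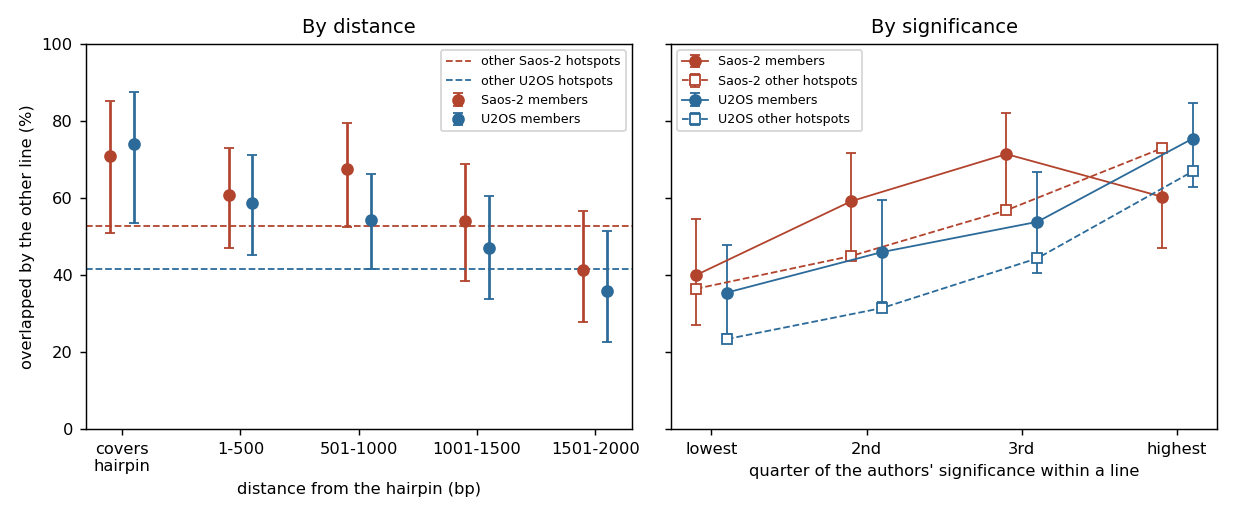
Share of hotspots overlapped by the other line (%, y axis) by distance from the hairpin in bp (left) and by quartile class of the authors' significance within a line (right), with Wilson 95% intervals as bars. On the left, dashed lines mark the other hotspots at 52.8% (Saos-2) and 41.5% (U2OS), and the points stand above 70% at the hairpin and at 41.5% and 35.9% in the farthest bin.

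Beside hairpins of known strand, hotspots lay more often upstream than downstream. In Saos-2 95 members were upstream and 68 downstream, so 58.3% of 163 were upstream (50.6 to 65.6). In U2OS the counts were 104 and 80, or 56.5% of 184 (49.3 to 63.5), an interval that contains an even split. Upstream members were overlapped in 61.1% of cases in Saos-2 (51.0 to 70.2) and 53.8% in U2OS (44.3 to 63.1). Downstream members were overlapped in 47.1% (35.7 to 58.8) and 43.8% (33.4 to 54.7). The upstream and downstream intervals overlapped in both lines. The strand of the hairpin was not in the table for 9 members in Saos-2 and 14 in U2OS.

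**Figure D3:**
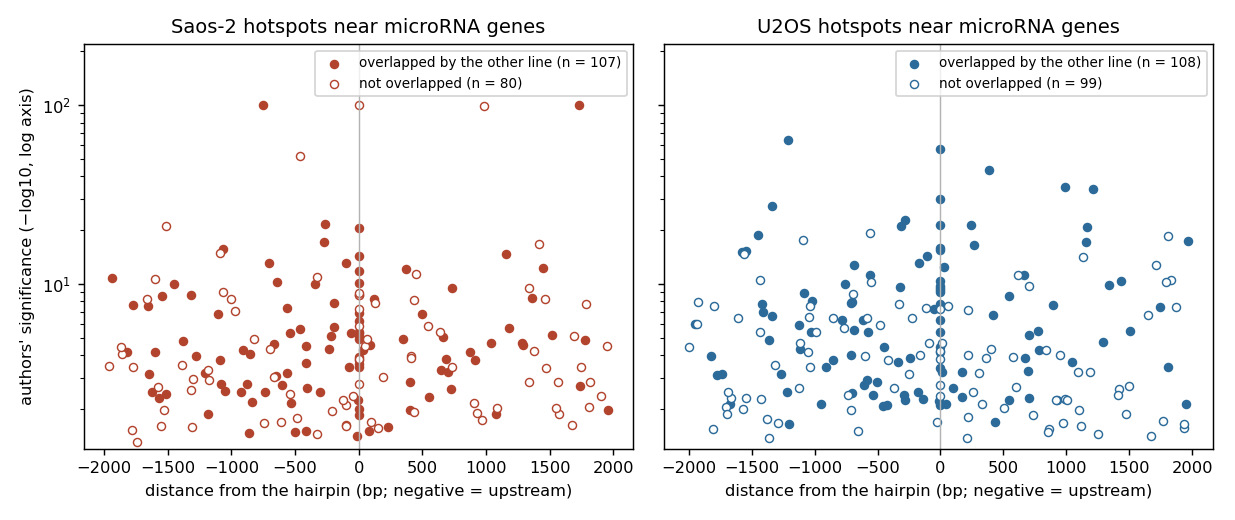
Each member hotspot by its distance from the hairpin in bp (x axis, negative upstream) and the authors' significance (y axis, −log10, log axis), filled where the other line overlaps it; members beside a hairpin of unknown strand are not drawn. Points at 0 cover the hairpin, and the values at 100 in Saos-2 belong to MIR12136.

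Counted by gene, 270 of 1793 microRNA genes (15.1%, interval 13.5 to 16.8) had a member hotspot in either line. Hotspots of both lines lay beside 118 genes (6.58%), those of Saos-2 alone beside 62 (3.46%) and those of U2OS alone beside 90 (5.02%), which makes 10.0% of genes in Saos-2 and 11.6% in U2OS. At 114 of the 118 the hotspots of both lines overlapped each other. Neighbouring genes share hotspots, and the 1793 genes formed 1521 loci when genes up to 10 kb apart were joined, of which 107 had hotspots of both lines, 56 had them from Saos-2 alone, 83 from U2OS alone and 1275 had none. The order of the lines depended on the length of the lists. With both cut to the 51556 most significant hotspots, 75 genes had members from Saos-2 alone and 65 from U2OS alone (68 and 60 loci), out of 196 and 172 members.

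The genes named first, with a number under 1000 or MIRLET, hold most of the well-studied families, whereas many genes with higher numbers rest on less evidence. Of 558 such early genes, 74 (13.3%, 10.7 to 16.3) had a member in either line, and of 1235 later genes 196 (15.9%, 13.9 to 18.0). The 2 intervals overlapped. Of the early genes with a member, 34 had it in both lines, 14 from Saos-2 alone and 26 from U2OS alone.

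Among 10 let-7 genes, which encode a conserved family that represses growth-promoting messages, 3 had a member in Saos-2 and 2 in U2OS, 1 of them in both, beside 10.0% and 11.6% of all microRNA genes. MIRLET7I on chromosome 12 had the strongest. In Saos-2 a hotspot of 650 bp at chr12:62602330-62602979 (significance 13.1) lay 707 bp upstream of the hairpin, and in U2OS one of 641 bp at chr12:62602341-62602981 (7.93) matched it nearly end to end. Both covered the start of the host lncRNA MIRLET7IHG. A second overlapping pair lay nearer the hairpin, at chr12:62603153-62603453 (4.33) in Saos-2 and chr12:62603072-62603347 (3.65) in U2OS, and a further hotspot of 92 bp (2.25) was in Saos-2 alone. MIRLET7A3 and MIRLET7B shared 1 Saos-2 hotspot at chr22:46112059-46112213 (2.43), and MIRLET7E had 1 in U2OS at chr19:51690754-51690947 (2.32). Both of these were weak within their lists.

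Of 14 genes linked to MYC and the cell cycle, 6 had a member in both lines and none in 1 line alone, beside 6.58% of all microRNA genes in both, 3.46% from Saos-2 alone and 5.02% from U2OS alone. For 5 of them this was a single pair of hotspots. The growth-promoting cluster in MIR17HG on chromosome 13 (MIR17, MIR18A, MIR19A, MIR20A and MIR19B1) had a hotspot at chr13:91348933-91349224 (292 bp, significance 4.79) in Saos-2 and at chr13:91349011-91349243 (233 bp, 4.85) in U2OS, 1381 and 1362 bp upstream of MIR17. MIR92A1, the last gene of the cluster, lay 2090 and 2071 bp from the same hotspots, just outside the window. MIR210, a target of the hypoxia response, had a hotspot at the start of MIR210HG, at chr11:568417-568700 (5.14) in Saos-2 and chr11:568438-568658 (3.87) in U2OS. These hotspots lay 219 and 240 bp upstream of the hairpin.

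Of 31 genes linked to mesenchymal and bone cells, 4 had a member in each line and 2 of them in both, near the 10.0%, 11.6% and 6.58% of all microRNA genes. MIR199A2, made from the antisense lncRNA DNM3OS and known in skeletal development, had a hotspot of 309 bp at chr1:172144704-172145012 (5.33) in Saos-2 and of 269 bp at chr1:172144693-172144961 (7.28) in U2OS. These lay 60 and 49 bp upstream of the hairpin, at the start of DNM3OS. A further hotspot of 81 bp (1.73), downstream, was in Saos-2 alone. MIR22 had an overlapping pair inside MIR22HG, at chr17:1714637-1714901 (3.05) and chr17:1714604-1714923 (6.32).

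The other 4 mesenchymal genes had a member in 1 line alone. MIR125B1 had it in Saos-2 at chr11:122101705-122101949 (4.07), 1861 bp upstream and inside MIR100HG. MIR125B2 had it in U2OS at chr21:16588479-16588806 (10.6), 1431 bp upstream and inside MIR99AHG. Among the listed genes this was the strongest U2OS hotspot without overlap. MIR143, a smooth muscle and mesenchymal microRNA, had it in U2OS at chr5:149427072-149427230 (2.48), inside the lncRNA CARMN. MIR218-2 had it in Saos-2 at chr5:168766397-168766472 (1.63), inside SLIT3, near the lower end of its list. MIR21 had no member, although in U2OS a hotspot at a protein-coding gene end lay 1296 bp away.

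Genes linked to other cell types had members as well. Of 11 blood genes, 2 had one in Saos-2 and 3 in U2OS, beside 10.0% and 11.6% of all microRNA genes: MIR155 and MIR181B2 in both, and MIR342 in U2OS alone (4.27, 1073 bp from the hairpin). The MIR155 hairpin, inside MIR155HG, was covered whole by a hotspot at chr21:25573867-25574165 (5.35) in Saos-2 and at chr21:25573920-25574173 (7.57) in U2OS. At MIR181B2 the values were 2.71 and 3.42. Of 16 neural genes, 2 had a member in Saos-2 and 3 in U2OS, against the same background. MIR9-1 had an overlapping pair at the start of MIR9-1HG, at chr1:156421709-156421909 (3.95) and chr1:156421699-156421858 (3.15), MIR7-3 a pair of 4.26 and 2.14, and MIR7-2 a hotspot in U2OS alone (3.21).

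No member was found in either line at the 12 epithelial genes, which include the miR-200 family, the 9 muscle genes, the 8 pluripotency genes, the 6 genes embedded in HOX clusters, the 7 p53 target genes or the liver gene MIR122. The count of 0 among these 12, 9, 8, 6 and 7 genes allows shares of 25% and above in each list. This is over the background of 10.0% and 11.6%, so a lower share than the background was not detectable in lists of this size. MIR192, MIR194-1, MIR194-2 and MIR215 are in both the epithelial and the p53 list, so those counts of 0 are not independent. For the p53 targets the nearest hotspot of any kind was at least 11.8 kb away in Saos-2 and 11.9 kb in U2OS; at MIR34A it lay 11849 and 11924 bp from the hairpin. Of the epithelial genes, 2 had a hotspot at a protein-coding gene end within 2 kb in U2OS and 0 in Saos-2. These were MIR200C and MIR141, which lay near the same U2OS hotspot, a weak one within its list (1.73).

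The 2 large clusters were without members as well. None of the 51 genes of the imprinted clusters at 14q32 had one, and the nearest hotspot of any kind lay 6.42 kb from a gene in Saos-2 and 6.43 kb in U2OS, with a median of 32.7 kb in both. None of the 50 genes from MIR512-1 to MIR373 on chromosome 19, taken as the placental cluster, had one. This set runs past that cluster into 3 of the pluripotency genes. The median distance to the nearest hotspot was 72.4 kb in Saos-2 and 24.8 kb in U2OS. The shortest in Saos-2 was 4.27 kb, at MIR373, which is one of those pluripotency genes. Among the genes up to MIR519A2 the shortest in Saos-2 was 30614 bp, at MIR519A2 itself. In U2OS the shortest was 2.08 kb, at MIR521-1, just outside the window. A count of 0 allows shares of up to 5.88% and 6%, below 10.0%, but the genes of a cluster share their surroundings and are not independent.

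**Figure D4:**
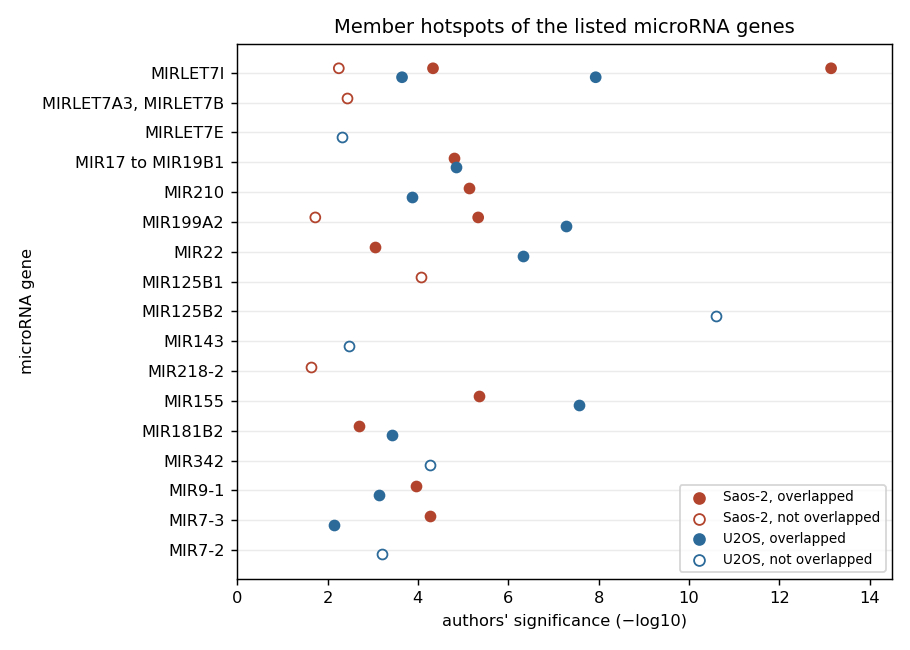
The authors' significance (x axis, −log10) of each member hotspot at the listed microRNA genes, in Saos-2 (red) and U2OS (blue), filled where the other line overlaps it. MIRLET7I has the highest value, 13.1 in Saos-2, and MIR125B2 the highest without overlap, 10.6 in U2OS.

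RefSeq transcript starts, of microRNA hosts or of other genes, were met more often by members than by other hotspots. A start window here runs from 250 bases before to 50 after a RefSeq start, and those of protein-coding genes near members are internal starts, since gene ends were left out. Of the Saos-2 members, 22 of 196 (11.2%, 7.53 to 16.4) touched such a window, against 3.64% of the others. In U2OS it was 23 of 221 (10.4%, 7.04 to 15.1), against 3.60%. Members at a start window were overlapped in 77.3% (17 of 22) and 73.9% (17 of 23) of cases, beside 76.6% and 61.1% of the others at one. Those away from one were overlapped in 55.7% in Saos-2 and 99 of 198 cases in U2OS, and others away from one in 51.9% and 40.8%.

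Members touched 37 start windows, of which 21, belonging to 19 genes, were touched in both lines, 4 by Saos-2 members alone and 12 by U2OS members alone. The 21 shared windows had a median GC content of 67.3% and 27 CpG sites, against 58.7% and 14 over all 33725 windows. The letters GGGCGG, bound by SP factors, stood on either strand in 17 of 21 (81.0%) and in 45.0% of all windows. CCAAT stood in 12 of 21 (57.1%) and in 34.4%, and ACGTG, the core of the hypoxia response element, which overlaps the E-box CACGTG, in 6 (28.6%) and in 21.3%. The letters of AP-1 (TGANTCA), the TATA box (TATAAA) and RUNX factors (TGTGGT) stood in 0 of 21, which allows a share of up to 14.3%, against 7.67%, 11.6% and 13.1% of all windows. CACGTG stood in 1 of 21 against 7.18%, TGACGTCA, the cAMP response element, in 2 of 21 against 1.87%, and the CArG box in 2 of 21 against 1.296%. Some of the 21 windows overlap, so the same bases were counted more than once. SERF2 and SERF2-C15ORF63 share the window chr15:43791726-43792025, the TECR and DNAJB1 windows overlap, and so do those of TRAF2 and LOC105376326. The windows are thus not independent, and the limit of 14.3% is too low. GC-rich letters are frequent in GC-rich windows, and a match is not a bound site. The set of all windows holds starts with and without a hotspot. Starts under other hotspots shared by the lines were not counted. The contrasts in GC content, CpG sites and letters therefore cannot be read as particular to starts near microRNA genes.

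The windows of the hosts named above are shown because the hotspots of both lines covered them, with that of ANKRD54 for MIR658, the pair with the highest lower significance outside the mitochondrial copies. They are reference sequence on the host's strand, in GRCh38.p14, with matches to the SP, CCAAT, hypoxia, cAMP and CArG letters given above, on either strand, in capitals.
MIRLET7IHG, chr12:62602493-62602792, plus strand: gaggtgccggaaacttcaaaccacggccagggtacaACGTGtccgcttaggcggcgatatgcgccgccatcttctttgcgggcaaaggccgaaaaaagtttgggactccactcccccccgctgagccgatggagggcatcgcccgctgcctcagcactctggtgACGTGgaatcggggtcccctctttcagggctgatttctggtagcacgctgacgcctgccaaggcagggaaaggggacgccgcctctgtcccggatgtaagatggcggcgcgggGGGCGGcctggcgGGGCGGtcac
MIR210HG, chr11:568408-568707, minus strand: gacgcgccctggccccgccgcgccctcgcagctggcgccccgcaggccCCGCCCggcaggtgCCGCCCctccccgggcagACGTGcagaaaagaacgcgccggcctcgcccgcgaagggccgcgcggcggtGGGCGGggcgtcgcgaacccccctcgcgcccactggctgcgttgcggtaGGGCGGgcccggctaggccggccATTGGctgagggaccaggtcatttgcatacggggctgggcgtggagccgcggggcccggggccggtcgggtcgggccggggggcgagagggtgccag
DNM3OS, chr1:172144786-172145085, minus strand: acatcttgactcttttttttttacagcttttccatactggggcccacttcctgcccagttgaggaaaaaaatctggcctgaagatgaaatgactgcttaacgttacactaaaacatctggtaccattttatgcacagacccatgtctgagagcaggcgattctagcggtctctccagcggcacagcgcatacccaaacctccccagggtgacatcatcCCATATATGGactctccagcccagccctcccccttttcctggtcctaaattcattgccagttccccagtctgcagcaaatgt
MIR9-1HG, chr1:156421720-156422019, minus strand: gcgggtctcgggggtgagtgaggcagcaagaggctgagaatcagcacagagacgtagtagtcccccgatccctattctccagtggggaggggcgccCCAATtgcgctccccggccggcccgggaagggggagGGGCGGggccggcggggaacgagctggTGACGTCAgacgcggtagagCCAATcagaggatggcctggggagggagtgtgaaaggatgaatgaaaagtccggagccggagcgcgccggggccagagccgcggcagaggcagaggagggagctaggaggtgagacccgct
ANKRD54, chr22:37844285-37844584, minus strand: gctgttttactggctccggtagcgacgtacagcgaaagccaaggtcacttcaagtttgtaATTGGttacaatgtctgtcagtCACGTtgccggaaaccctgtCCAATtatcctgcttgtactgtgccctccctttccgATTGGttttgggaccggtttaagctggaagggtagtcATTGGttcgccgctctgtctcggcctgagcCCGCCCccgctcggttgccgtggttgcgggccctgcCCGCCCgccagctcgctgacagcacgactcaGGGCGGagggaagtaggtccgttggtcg
The MIRLET7IHG and ANKRD54 windows were covered over all 300 bases in both lines, MIR210HG over 284 bases in Saos-2 and 221 in U2OS, DNM3OS over 227 and 176, and MIR9-1HG over 190 and 139. MIR210HG was the most GC-rich of these at 80.0% with 44 CpG sites, and held 4 GGGCGG matches and 1 ACGTG. DNM3OS stood apart with 48.7% GC, 5 CpG sites, 0 GGGCGG matches and a CArG box, the letters read by serum response factor. MIR9-1HG held TGACGTCA and 2 CCAAT matches.

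Hairpins themselves were covered by 24 members in Saos-2 and 23 in U2OS, which were 32 genes in either line and 14 in both. MIR658 had the most significant such pair. Its hotspots, at chr22:37844213-37844722 (20.5) in Saos-2 and 663 bp wide (56.9) in U2OS, covered the internal ANKRD54 start, and the mature sequence gGCGGAGGgaaguagguccguuggu, at chr22:37844287-37844311, falls at the downstream end of the window printed above. Next by the lower significance came MIR7845, at a KLF7 start, with 10.2 and 30.1, and MIR639, at the DNAJB1 and TECR starts, with 11.9 and 9.56. MIR587 followed with 14.3 and 7.76, MIR4757 with 5.40 and 9.25, and MIR155 as given above. MIR1208, MIR3939, MIR3175 and MIR583 had lower values of 3.76 to 5.12 in Saos-2 and 6.28 to 15.5 in U2OS.

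Of the 32 covered hairpins, 24 had a sequence in the table, and these were searched for AP-1 letters (TGANTCA) and the cAMP response element (TGACGTCA). AP-1 letters stood in 6 of 24, against 35 of 1461 hairpins (2.40%) in all. In 4 of the 6 the letters lay inside the hotspot, and in MIR4435-1 and MIR4435-2, near-identical copies, they lay outside the covered part. The element TGACGTCA stood in 1 of 1461 hairpins, MIR4757, in both arms of the stem. The 4 hairpins with AP-1 letters under a hotspot and MIR4757 are printed with the matches in capitals.
MIR587, chr6:106784125-106784220: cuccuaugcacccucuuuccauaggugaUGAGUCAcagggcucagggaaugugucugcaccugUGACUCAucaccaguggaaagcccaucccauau
MIR4276, chr4:174423795-174423864: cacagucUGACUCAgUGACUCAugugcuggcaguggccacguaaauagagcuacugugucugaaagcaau
MIR5702, chr2:226658710-226658793: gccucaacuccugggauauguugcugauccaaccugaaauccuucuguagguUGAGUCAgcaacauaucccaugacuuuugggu
MIR6073, chr11:15969533-15969621: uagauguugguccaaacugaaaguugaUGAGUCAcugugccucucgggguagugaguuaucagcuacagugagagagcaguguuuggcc
MIR4757, chr2:19348429-19348505: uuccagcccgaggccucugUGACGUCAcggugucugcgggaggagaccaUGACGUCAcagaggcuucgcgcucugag
MIR587 and MIR4757 were covered whole in both lines, MIR5702 in Saos-2 alone (2.77), and MIR4276 and MIR6073 in U2OS alone (3.798 and 4.18). Both MIR587 and MIR4276 held the AP-1 letters 2 times. These letters were chosen for search after the hotspots were seen, and the counts are small.

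The most significant Saos-2 members without overlap were led by 2 loci that lie in nuclear copies of mitochondrial DNA. Over MIR12136 Saos-2 had 4 hotspots of 98.7 to 100, 1 of which covered the hairpin (chr1:631644-633299), while U2OS had 1 within the window, at chr1:633896-634206 (64.0). MIR4485 had 3 in Saos-2, the strongest at chr11:10508789-10509718 (51.7), and 0 in U2OS. Reads from such copies and from mitochondrial DNA itself cannot be told apart in these lists. Without both loci, 112 of 189 Saos-2 members (59.3%) and 115 of 220 U2OS members (52.3%) were overlapped.

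The next Saos-2 members without overlap lay 1418 bp downstream of MIR4433B on chromosome 2 (16.7), upstream of MIR942 in TTF2 (15.001), near MIR4655 in MAD1L1 (11.4) and near MIR760 (11.0). At MIR942 U2OS had a separate hotspot 417 bp from the hairpin (3.76), so the gene counted as having members in both lines. The MIR760 hotspot, 971 bp wide at chr1:93845531-93846501, covered the whole of an internal start window of BCAR3 and had no U2OS hotspot over it.

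In U2OS the most significant members without overlap were upstream of MIR4510 at chr15:35925703-35926298 (19.2), downstream of MIR6085 (18.7) and upstream of MIR148A at chr7:25951076-25951457 (17.7). MIR148A is a widely expressed microRNA known for repressing DNA methyltransferase messages, and its hotspot lay 1090 bp upstream of the hairpin. MIR1178 in CIT (14.7), MIR3193 (14.3) and MIR548J in TPST2 (12.9) followed. Loci with 3 or more hotspots were few. Besides MIR12136 and MIR4485, 4 loci had 3 in Saos-2. Among them was MIR3190 inside BBC3, the gene of a p53-induced death effector, and its 3 hotspots had values of 1.69 to 4.90. In U2OS MIR4729 and MIR5188 had 3 each, and at least 29 loci had 2 or more.

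Overlapping members of both lines formed 113 pairs, 107 of them 1 to 1. In these the median significance was 4.31 in Saos-2 and 5.53 in U2OS and the median width 260 and 273 bp, values that depend on each library and are given side by side. Besides MIR12136 and MIR658, the pairs with the highest lower value were at MIR4425 (17.2 in Saos-2 and 22.9 in U2OS), MIR554 in TUFT1 (14.7 and 17.2), MIR3926-1 (13.2 and 18.0) and MIR4449 at the start of DANCR (13.1 and 14.4). Some pairs with unlike values in the lists were picked out after their values were seen: MIR4756 with 6.82 and 43.4, MIR1282 with 4.66 and 34.2, MIR3649 with 2.48 and 27.3, and MIR298 with 21.6 and 4.44.

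**Figure D5:**
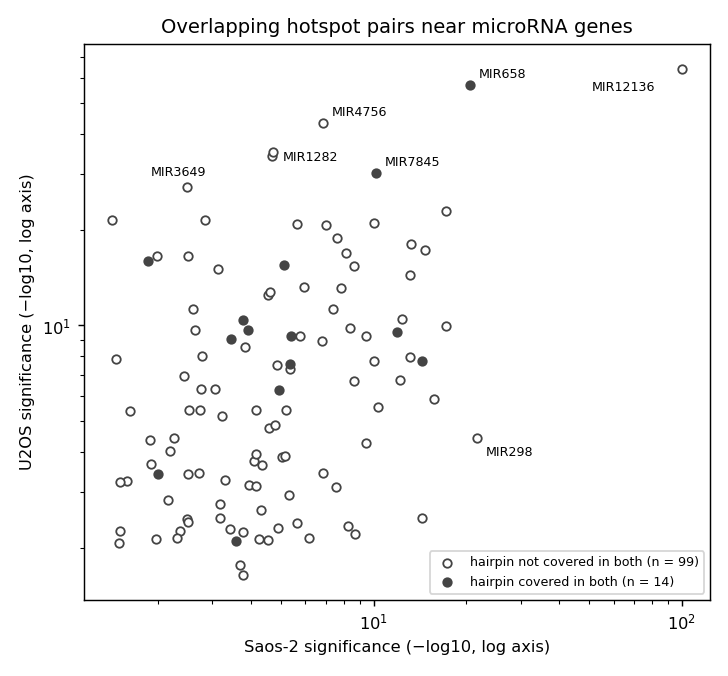
The authors' significance in Saos-2 (x axis) and in U2OS (y axis), both −log10 on log axes, for the 113 overlapping pairs of members, filled where both cover a hairpin. MIR658 stands at 20.5 and 56.9, MIR4756 at 6.82 and 43.4 and MIR298 at 21.6 and 4.44; values of different lists are not on a common scale.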

How the data were processed

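DNase-seq hotspot lists of Saos-2 and U2OS, 1 library each, were analysed as deposited. Per the labels' protocols, nuclei were digested with DNase I for 3 min at 37 °C and libraries amplified for 8 to 10 PCR cycles, and per the submitters' processing notes reads were processed with Trimmomatic 0.38 and BWA 0.7.15 on hg38. The hotspot caller, its filters and read depth are not given in the sources used here, so depth is unknown; a deeper library can yield more hotspots and lower overlap. The deposited lists, at an FDR of 0.05, hold for each hotspot a −log10 significance value made by the authors, capped at 100, and a score column by the authors that was not used. The files have no header, so the reading as −log10 of the false discovery rate rests on the values.

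Genes and sequences came from RefSeq tables (GRCh38.p14, whose primary assembly is that of hg38). Of 1793 microRNA genes on chromosomes 1 to 22, 1657 had a sequence there. No genome was used, so hotspots were not searched for motifs outside the printed windows. Shares carry Wilson 95% intervals and densities exact Poisson ones. They cover counting error only. No p-value was computed. The named genes were the members of the fixed lists with a hotspot, the 6 strongest loci without overlap per line, the 6 strongest shared, the 3 with the most hotspots per line and up to 10 hairpins covered in both lines. The members, lists and rules were chosen with earlier results of these data known, and the letters searched in hairpins, the CArG box and the values without MIR12136 and MIR4485 were chosen after the hotspots were seen. The code, in Python 3.11.15 with numpy 2.4.6, pandas 2.3.3, scipy 1.17.1 and matplotlib 3.10.9, was tested on simulated data. Alternatives were an FDR of 0.01, lists of equal length, merging of hotspots less than 150 bp apart, windows of 1 and 5 kb, a margin of 2.5 kb, early-numbered genes only and a reciprocal overlap of 50%.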

Additional observations from a re-analysis of the deposited data

How the results depend on the processing

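Of 143 values recomputed under an alternative, 100 moved by less than their interval or by less than 1.5 times and 43 moved further. Members were overlapped more often than other hotspots under 8 of 8 alternatives in each line. These alternatives cut the same 2 lists again and are not independent checks. In Saos-2 the main interval of the members contained the share of the others. With lists of equal length the Saos-2 shares were 50.5% of members and 47.7% of others. A window of 1 kb left 118 members in Saos-2 and 133 in U2OS with 65.3% and 59.4% overlapped, at 75 genes in both lines, 33 in Saos-2 alone and 48 in U2OS alone (71, 31 and 47 loci). A window of 5 kb gave 386 and 427 members, at 211, 116 and 162 genes (188, 102 and 148 loci). Genes with a number under 1000 or MIRLET alone left 45 and 54 members, 7 and 5 of them at hairpins, with a median significance of 4.79 in Saos-2, 53.3% and 53.7% in protein-coding bodies, and 34, 14 and 26 genes (28, 12 and 21 loci). With both lists cut to 51556 hotspots by significance, the order of the lines reversed: 50.5% of 196 Saos-2 and 58.1% of 172 U2OS members were overlapped, and members from 1 line alone lay at 75 genes (68 loci) in Saos-2 and 65 (60 loci) in U2OS. The U2OS median was then 6.30. Requiring 50% of both hotspots lowered the overlapped shares to 43.9% and 38.9%. At an FDR of 0.01 the Saos-2 median was 4.57. The cause of these shifts was not tested. A margin of 2.5 kb, merging, joining loci within 50 kb and leaving out MIR12136 and MIR4485 moved no value of the members. No paired analysis was possible because each line had 1 library, which also leaves no replicate to omit. Depth limits what a missing hotspot shows: a region without one was not called at this depth.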

Other observations

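Under the same 2 kb rule, other small RNA genes differed from microRNA genes in how often a hotspot away from protein-coding gene ends lay beside them. A hotspot was found at 7.13% of 1150 snoRNA genes in Saos-2 (Wilson 95% interval 5.78 to 8.76) and 7.57% in U2OS (6.17 to 9.24), beside 10.0% and 11.6% of microRNA genes. Transfer RNA genes had one in 23.2% (19.5 to 27.4) and 29.6% (25.5 to 34.0) of 439 cases, and snRNA genes in 20.5% (14.9 to 27.7) and 17.2% (12.0 to 24.0) of 151. Small RNA genes occur in clusters and near-identical copies, so genes are not independent and these intervals are too narrow.

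By raw count, chromosome 5 held 11 members in Saos-2 and 22 in U2OS, chromosome 1 held 24 and 17, chromosome 15 held 9 and 16, chromosome 14 held 5 and 11, chromosome 18 held 2 and 6 and chromosome 4 held 2 and 5. Some other chromosomes held equal or nearly equal counts, such as 11 and 11 on chromosome 17, 12 and 12 on chromosome 11 and 16 and 15 on chromosome 2. None of these counts was set against all hotspots of each chromosome. Hairpins beside hotspots of both lines had a median GC content of 55.0% (n = 94), those with a hotspot in Saos-2 only 53.9% (n = 52), in U2OS only 52.8% (n = 76) and in neither 52.0% (n = 1239).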
